A study of Mus musculus with 6 samples.

Results

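The genes described here are 10 markers of the neuronal cytoskeleton and the growth cone, namely Tubb3, Map2, Mapt, Map1b, Nefl, Nefm, Ina, Gap43, Stmn2 and Dcx. They were chosen by name, with earlier results of these data known. Their probes were found through the accession that each array spot carries, which gave 16 probes, with at least 1 for every gene. Of the 10 genes, 9 passed the filter on low signal and were tested, among 16490 genes tested in all. The arrays carried RNA of neuro2a (N2a) cells, a mouse neuroblastoma line that is widely used as a neuronal model. All cells were transfected with the RNAi plasmid pcDNA6.2-GW/EmGFP-miR, which also encodes a green fluorescent protein. The 3 Vector samples received the plasmid without an RNAi insert, and the 3 YAYC samples received plasmids that target NF-YA together with NF-YC, which are subunits of the CCAAT-binding transcription factor NF-Y. Transfection was transient and no sorting step is described, so each sample may hold cells that did not take up a plasmid. The labels do not say whether the 3 samples of a group were separate cultures, so each p-value measures only the spread between these samples.

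An axon or dendrite is built on microtubules, hollow polymers of alpha and beta tubulin that are stabilised by associated proteins such as Map2 in dendrites and tau (Mapt) in axons. Neurofilaments, polymers of Nefl, Nefm, Nefh and alpha-internexin (Ina), set the calibre of axons. At the tip of a growing process, the growth cone, Gap43 acts at the membrane, and stathmins and doublecortin (Dcx) bind tubulin or microtubules while the process extends. These genes are standard markers of neurons and of neuronal differentiation, and N2a cells can extend neurites when they are made to differentiate.

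The values are single-colour intensities on a log2 scale, relative to the 75th percentile of the same array, so that 0 stands for a signal of 718 to 754 intensity units and a step of 1 for a doubling. The share of spots well above background, as the scanner software judged it, lay between 61.9% and 66.2%, and the arrays of a group correlated at 0.989 to 0.994 over the tested probes. All 6 arrays were on 1 slide, with the Vector arrays and YAYC array 1 in one row and YAYC arrays 2 and 3 in the other. The targeted genes were both lower, with a change of -0.76 (SE 0.055, limma adjusted p 0.00128) for Nfya and of -1.81 (SE 0.045, limma adjusted p 0.000323) for Nfyc. Of 14 markers of sympathetic neuroblastoma cells, 13 were well above background on all 6 arrays, beside 13973 of all 16490 tested genes. Those with the highest Vector signal were Prph at 6.84, Chgb at 6.51, Phox2a at 6.33 and Chga at 5.65. Of these 14 markers 3 were called lower in YAYC samples, beside 5% of all tested genes. They were Ret at -0.97, Mycn at -0.69 and Th at -0.62, and their part in the results below was not tested. The Mycn call was lost with the row of the slide as a block, and the Th call when the 75th percentile was taken over probes well above background.

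A gene was called lower or higher when its limma adjusted p was below 0.05 and its change exceeded 1.5-fold. By this rule 0 of the 9 tested members were called lower and 0 higher. Over all tested genes the same rule called 5% lower and 3.91% higher. At an unadjusted limma p below 0.05, 4 members were lower and 1 was higher, where 46.2% of all tested genes reached this p in either direction and 22.9% were lower, and these same 5 members had an adjusted p below 0.05. That is 5 of 9, against 31.5% of all tested genes that reached this adjusted p in either direction and 15.8% that were lower. The 4 lower members were Map2, Mapt, Gap43 and Stmn2, and the higher one was Ina. Their differences were small, between 1.15-fold and 1.23-fold. Tubb3, Map1b and Nefm differed by less than the test could resolve, and Nefl and Dcx were not measured above background. The median change of the 9 members was -0.21, beside 0.0053 for all tested genes. It varied with the arrays and the processing. It was -0.027 with normexp and quantile normalisation, -0.0015 without Vector array 2, -0.084 without Vector array 3, 0.021 without YAYC array 3, 0.11 with the row of the slide as a block and -0.092 for the 8 members left when Dcx was dropped as a probe at background. For 8 of the 9 the 95% interval of the change lay within 1.5-fold in both directions, the exception being Dcx. The plot of member probes by array shows the signals behind these statements.

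**Figure D1:**
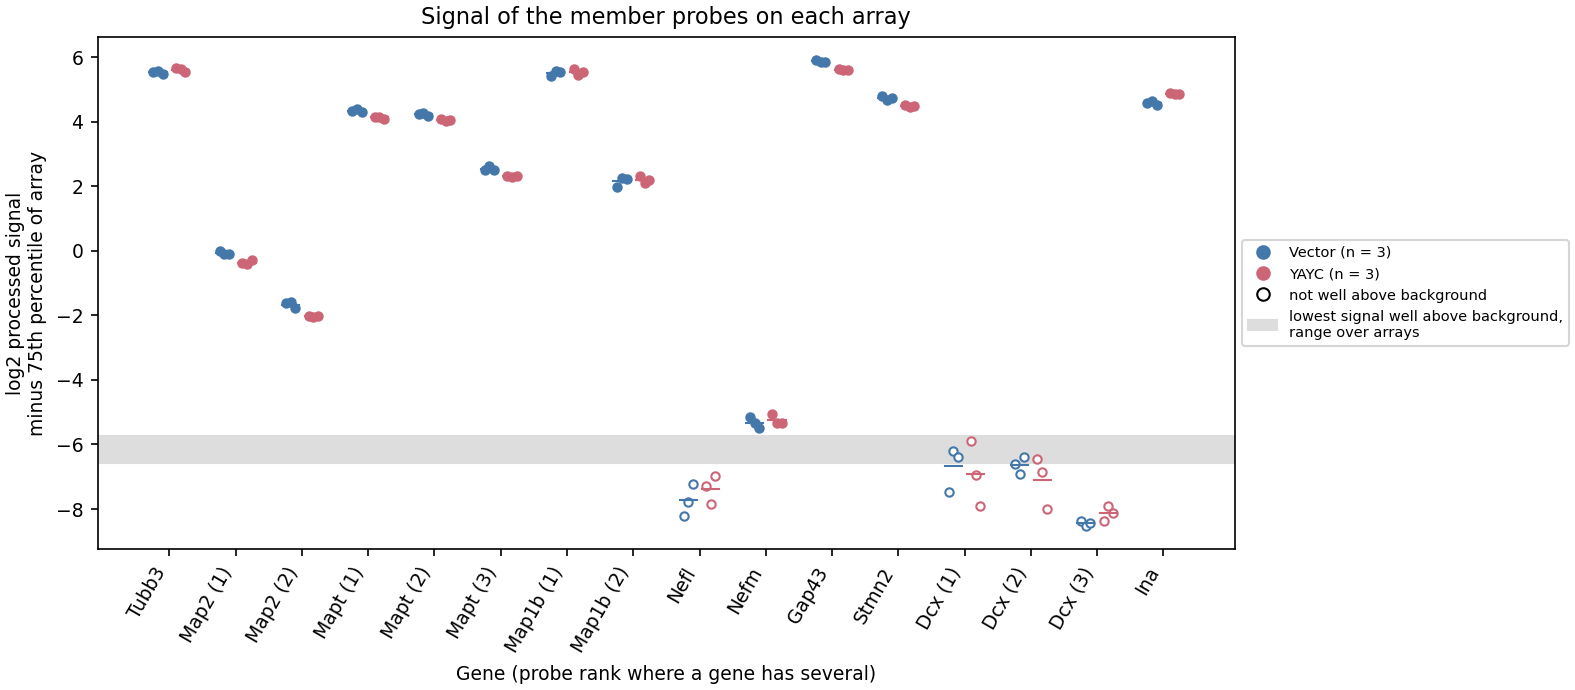
Normalised log2 signal of the 16 member probes on the 3 Vector and 3 YAYC arrays, with short lines for group means, open points for values not well above background and a grey band for the range, over arrays, of the lowest signal judged well above background. Nefl and the Dcx probes lie in or under the band, Nefm lies just above it, and the other members lie between -2.05 and 5.92, far above it.

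Since NF-Y acts through CCAAT sequences, the promoter windows of the members were read first. RefSeq windows (GRCm38.p6, 250 bases before to 50 bases after the gene start) were at hand for 5 members, Tubb3, Map2, Map1b, Ina and Dcx, and the last had 2 windows. Both strands were searched for CCAAT, whose reverse complement reads ATTGG, without overlap with another motif being excluded. Of all 32851 windows, 37.4% held at least 1 match, and of the windows of tested genes 37.8%. The 250 bases upstream of the start are printed 5′ to 3′ on the gene's strand for the members with a measured change, with CCAAT or ATTGG in capitals. Tubb3 has 1 match, on the minus strand, with its first base at -77 from the start, and Map2, Map1b and Ina have none.
Tubb3, chr8:123411303-123411552, plus strand: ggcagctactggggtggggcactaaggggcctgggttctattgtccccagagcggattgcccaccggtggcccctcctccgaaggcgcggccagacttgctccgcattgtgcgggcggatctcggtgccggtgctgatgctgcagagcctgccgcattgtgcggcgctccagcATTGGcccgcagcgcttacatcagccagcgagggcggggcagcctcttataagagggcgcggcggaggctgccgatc
Map2, chr1:66175079-66175328, plus strand: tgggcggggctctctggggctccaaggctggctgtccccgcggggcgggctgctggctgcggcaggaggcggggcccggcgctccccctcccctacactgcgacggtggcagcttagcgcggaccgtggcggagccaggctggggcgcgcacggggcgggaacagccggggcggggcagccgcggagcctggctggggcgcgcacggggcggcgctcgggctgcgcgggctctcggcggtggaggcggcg
Map1b, chr13:99516603-99516852, minus strand: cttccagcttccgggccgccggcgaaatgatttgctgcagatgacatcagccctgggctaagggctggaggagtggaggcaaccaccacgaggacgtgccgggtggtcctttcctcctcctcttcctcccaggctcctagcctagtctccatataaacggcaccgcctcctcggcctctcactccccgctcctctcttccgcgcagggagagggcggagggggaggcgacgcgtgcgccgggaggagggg
Ina, chr19:47014431-47014680, plus strand: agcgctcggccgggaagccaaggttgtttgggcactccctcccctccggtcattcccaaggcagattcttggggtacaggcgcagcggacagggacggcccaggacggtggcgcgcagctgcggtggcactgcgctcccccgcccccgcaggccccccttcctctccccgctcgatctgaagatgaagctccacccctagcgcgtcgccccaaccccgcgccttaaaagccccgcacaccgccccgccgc

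For comparison, 2 genes of wider cytoskeletal lists that were called lower are printed in the same way, and the reason is that both hold several matches. Being picked for this, they cannot show how often genes called lower hold CCAAT. Agbl5 encodes an enzyme that removes glutamates from modified tubulin, and in the first of its 4 windows CCAAT starts at -57 and -10. Its windows 2 and 4 hold no match in the 250 bases before the start. Gsk3b encodes a kinase that phosphorylates tau and other microtubule-associated proteins, and matches start at -215, -132 and -18 in its window, with a further one at 24.
Agbl5, chr5:30888685-30888934, plus strand: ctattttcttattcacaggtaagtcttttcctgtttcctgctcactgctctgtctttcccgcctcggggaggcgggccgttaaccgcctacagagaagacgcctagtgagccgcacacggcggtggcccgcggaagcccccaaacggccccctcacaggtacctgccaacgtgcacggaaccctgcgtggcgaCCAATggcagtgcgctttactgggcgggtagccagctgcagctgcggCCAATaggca
Gsk3b, chr16:38088751-38089000, plus strand: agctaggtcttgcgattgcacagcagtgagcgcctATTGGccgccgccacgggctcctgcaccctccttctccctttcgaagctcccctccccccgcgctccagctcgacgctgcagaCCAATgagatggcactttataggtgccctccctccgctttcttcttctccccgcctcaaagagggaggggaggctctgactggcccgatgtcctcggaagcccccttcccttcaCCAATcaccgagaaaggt

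These matches are letters in a sequence and not measured sites. Of the windows of genes called lower, 47.8% held CCAAT, and of those of genes called higher 33.4%. The only one of the windows of the 4 well-detected members to hold the sequence was that of Tubb3, and its signal did not differ measurably. Map1b, whose signal did not differ measurably either, lacks it in the window, as do Map2, which was lower, and Ina, which was higher. No window was at hand for Mapt, Gap43 and Stmn2, the other lower members. A link between the sequence and the member changes was not tested. Map2 holds 5 copies of GGGCGG, a sequence found in 54.0% of the windows of tested genes, and Ina holds 2. For Dcx, CCAAT starts at -196 in one window and at 9 in the other.

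The microtubule genes were taken first. Tubb3 encodes class III beta tubulin, the beta tubulin used as a marker of neurons. Its signal was 5.55, 5.57 and 5.50 on the Vector arrays and 5.66, 5.64 and 5.54 on the YAYC arrays. The groups overlapped, since YAYC array 3 lay below 2 of the Vector arrays. The change was 0.073 (SE 0.054, 95% interval -0.064 to 0.21) with a limma adjusted p of 0.396, so that a change of more than 1.16-fold in the upward direction lies outside the interval.

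Map2 encodes a microtubule-associated protein of dendrites and cell bodies, and 2 probes measured it. On the brighter probe the signal was -0.0026, -0.094 and -0.080 on the Vector arrays and -0.39, -0.41 and -0.28 on the YAYC arrays. All YAYC arrays lay below all Vector arrays, as they did for 27.1% of tested genes. The change was -0.30 (SE 0.056, 95% interval -0.45 to -0.16), or 1.23-fold lower, with a limma adjusted p of 0.0188. The dimmer probe read -1.62, -1.60 and -1.78 in Vector samples and -2.03, -2.05 and -2.01 in YAYC samples, a change of -0.36 (SE 0.065) with a limma adjusted p of 0.0163. Both probes thus gave a similar difference with separate groups.

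Mapt encodes tau, which binds microtubules of axons, and 3 probes measured it. The brightest read 4.33, 4.40 and 4.31 on the Vector arrays and 4.16, 4.16 and 4.10 on the YAYC arrays. Again the groups did not overlap. The change was -0.21 (SE 0.046, 95% interval -0.32 to -0.089), or 1.15-fold lower, with a limma adjusted p of 0.0321. The second probe changed by -0.17 with a limma adjusted p of 0.0552 and the third by -0.24 with a limma adjusted p of 0.0247. On each of the 3 probes every YAYC array was below every Vector array, but the brightest probe no longer passed when any single array was left out, with adjusted p from 0.0578 to 0.108.

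Map1b encodes a microtubule-associated protein of growing axons that appears early in development. Its brighter probe read 5.42, 5.59 and 5.56 in Vector samples and 5.63, 5.45 and 5.54 in YAYC samples. The groups overlapped, with the lowest value in the Vector group and the highest in the YAYC group. The change was 0.022 (SE 0.074, 95% interval -0.16 to 0.21) with a limma adjusted p of 0.863, and the dimmer probe changed by 0.034 (SE 0.10) with a limma adjusted p of 0.845. Dcx encodes doublecortin, which marks migrating and immature neurons. All of its 3 probes stayed at background on the 6 arrays, with raw signals of at most 12.5 intensity units, so that no level can be given. The filter kept 2 of the probes, and they changed by -0.24 and -0.47 with limma adjusted p of 0.817 and 0.495, values that stem from background signal on both sides.

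The neurofilament genes differed from each other in how far they could be measured. Ina encodes alpha-internexin, the neurofilament subunit that appears early in many neurons. Its signal was 4.59, 4.64 and 4.53 on the Vector arrays and 4.88, 4.87 and 4.88 on the YAYC arrays. All YAYC arrays lay above all Vector arrays, as they did for 27.7% of tested genes. The change was 0.29 (SE 0.046, 95% interval 0.18 to 0.41), or 1.22-fold higher, with a limma adjusted p of 0.0113. Of the 5 members that passed the adjusted p, Ina alone passed whichever single array was left out, with adjusted p from 0.0293 to 0.0486. When arrays were scaled to their median in place of the 75th percentile, which took the median change of all genes to -0.11, the Ina change was 0.18 with a limma adjusted p of 0.161.

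Nefm and Nefl encode the medium and light neurofilament chains. Nefm was well above background on all 6 arrays but only just, with raw signals of 16.8 to 22.9 intensity units. Its normalised signal was -5.13, -5.34 and -5.50 in Vector samples and -5.05, -5.34 and -5.32 in YAYC samples. The groups overlapped, and the change was 0.090 (SE 0.13, 95% interval -0.24 to 0.42) with a limma adjusted p of 0.667. Nefl had raw signals of 2.56 to 5.80 intensity units, stayed close to background throughout and did not pass the filter. Thus, of the 3 neurofilament chains among the members, Ina was measured far above background, Nefm close to it and Nefl not above it in either group.

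The growth cone genes Gap43 and Stmn2 moved by nearly equal amounts. Gap43, which encodes a membrane protein of growth cones and presynaptic terminals, read 5.92, 5.84 and 5.86 on the Vector arrays and 5.65, 5.61 and 5.62 on the YAYC arrays. Stmn2, which encodes a neuronal stathmin also known as SCG10 that destabilises microtubules in growth cones, read 4.82, 4.68 and 4.74 on the Vector arrays and 4.52, 4.46 and 4.51 on the YAYC arrays. For both genes every YAYC array lay below every Vector array. The Gap43 change was -0.25 (SE 0.043, 95% interval -0.36 to -0.14), or 1.19-fold lower, with a limma adjusted p of 0.0147. The Stmn2 change was -0.25 (SE 0.053, 95% interval -0.38 to -0.11), also 1.19-fold lower, with a limma adjusted p of 0.0288. The plot of each array against the Vector mean shows these differences beside the spread within each group.

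**Figure D2:**
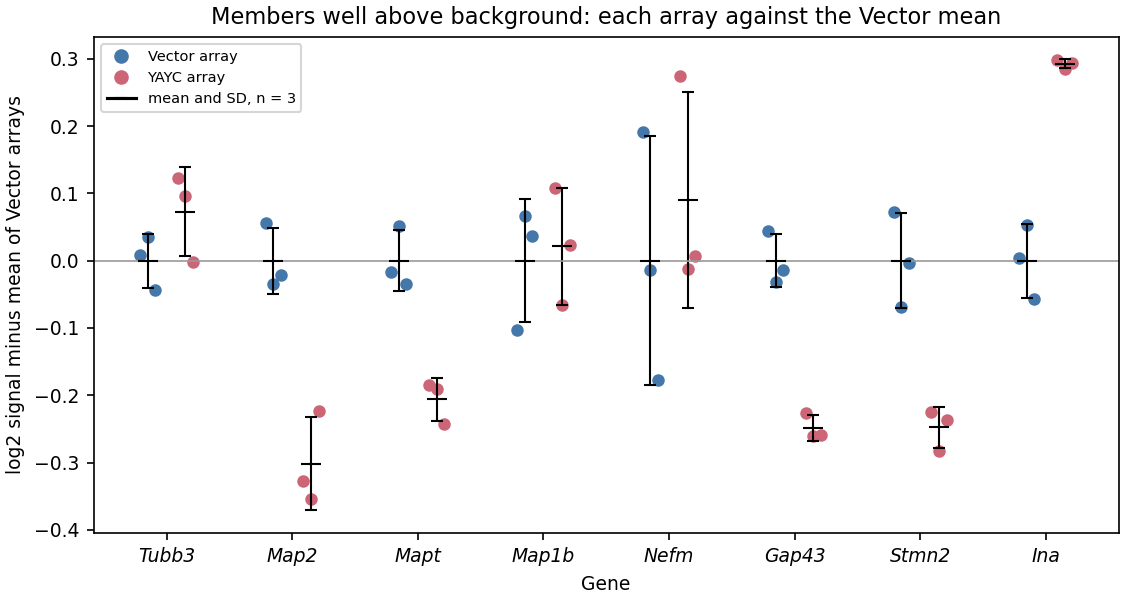
Log2 signal of the 8 members well above background on all arrays, each array drawn as its difference from the mean of the 3 Vector arrays, with black marks for group means and SDs (n = 3). Map2, Mapt, Gap43 and Stmn2 lie lower and Ina lies higher on all YAYC arrays, while Tubb3, Map1b and Nefm overlap.

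The direction of these 5 differences held in all 22 other settings of the processing, but the adjusted p did not. When a single array was left out, the count of lower members with an adjusted p below 0.05 was 2 without Vector array 2, 1 without Vector array 3, YAYC array 1 or YAYC array 3, and 0 without Vector array 1 or YAYC array 2. The share of all tested genes that passed in these fits is not given. Counts of wider lists described below also fell. Lower tubulins numbered 4 in the reported fit and 2 or 3 in these fits. Cytoskeletal kinases and phosphatases numbered 7 and then 4 to 6, and stathmins and collapsin response mediators 5 and then 4 or 5. With the row of the slide as a block the changes were -0.33 for Map2, -0.19 for Mapt, -0.23 for Gap43, -0.22 for Stmn2 and 0.30 for Ina, and the limma adjusted p lay between 0.0889 and 0.199. That fit compares YAYC array 1 with the 3 Vector arrays of the same row, since the other row holds no control. No member was called under any of the settings that kept a minimum fold change. The plot of changes with their intervals and the plot of the alternative settings show both facts.

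**Figure D3:**
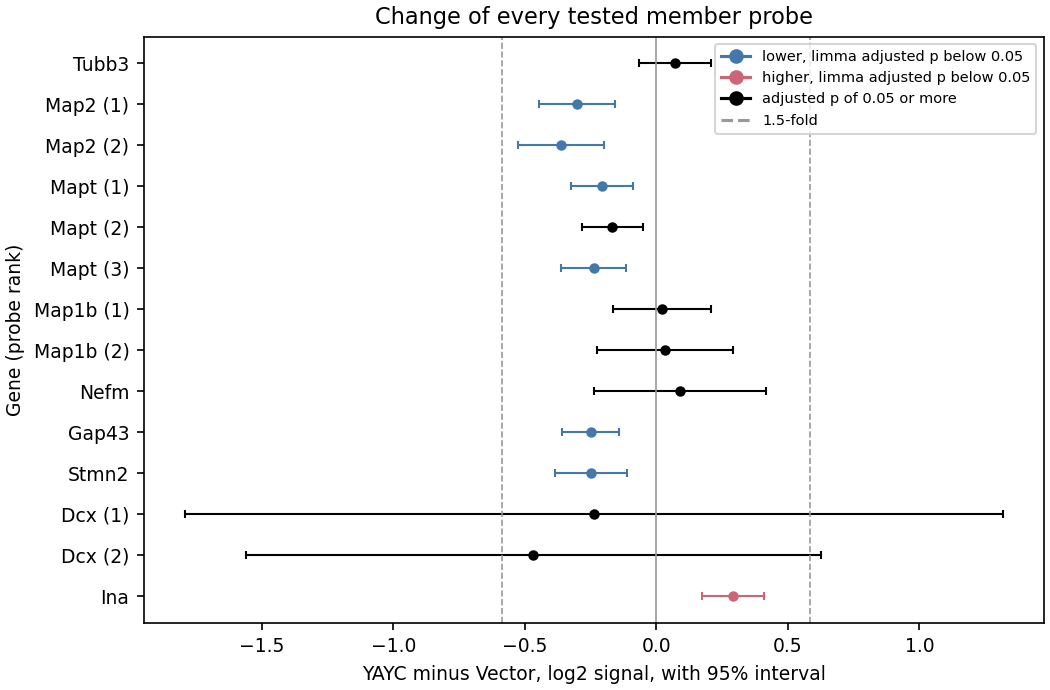
Change (YAYC minus Vector, log2 signal) of the 14 tested member probes with 95% intervals from limma, and dashed lines at 1.5-fold. The intervals of 12 probes lie between the dashed lines, and only those of the 2 Dcx probes, both at background, cross them.

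**Figure D4:**
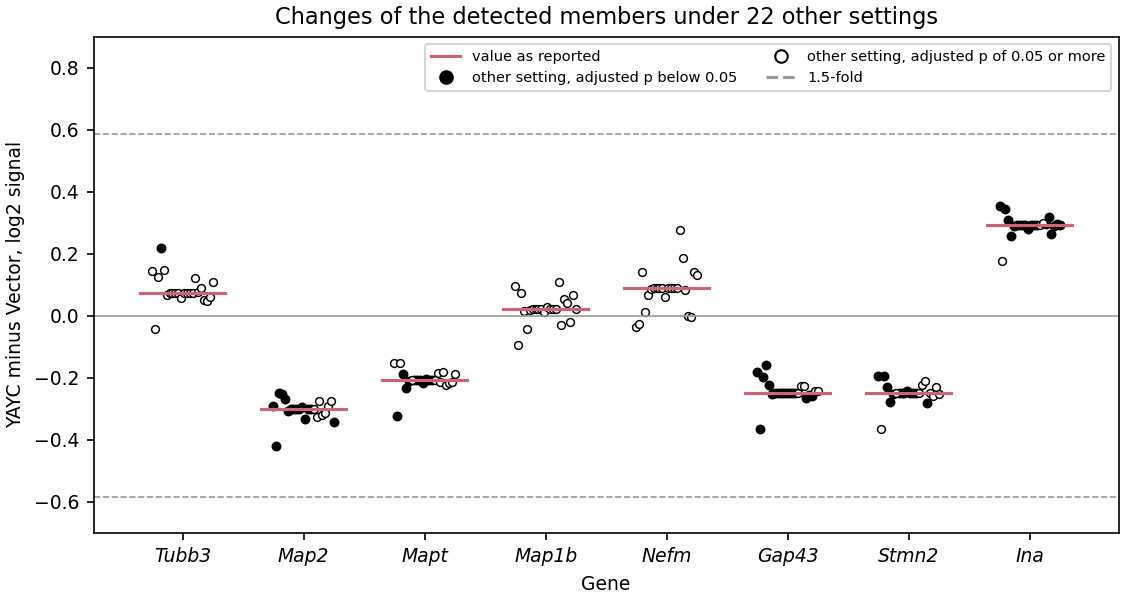
Change (YAYC minus Vector, log2 signal) of the 8 detected members as reported (red line) and under 22 other settings (points, filled where the limma adjusted p is below 0.05). The 5 members that passed the adjusted p keep their sign throughout, and none of the points reaches the dashed 1.5-fold lines.

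To place the members among genes of the same roles, 10 wider lists were read from the same fit. Beside the members they held 186 genes, of which 177 were tested, with 7 called lower and 3 called higher. Over all tested genes, 5% were called lower and 3.91% higher. The tubulin list, Tubb3 included, had 16 tested genes and 0 called. At an unadjusted limma p below 0.05, 6 were lower and 1 was higher. Of all tested genes, 46.2% reached this p in either direction and 22.9% were lower. Of the 16 changes, 13 were below 0, with a median of -0.10, where 8120 of all 16490 tested genes were below 0. Under the other scalings 10 to 15 tubulin changes were below 0. The 15 came with median scaling, which took the median change of all genes to -0.11. The tubulin with the largest change was Tuba8, an alpha tubulin, at -0.50 (SE 0.039) with a limma adjusted p of 0.00155. Tubulin genes are alike in sequence, and cross-hybridisation between them was not tested.

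The list of stathmins and collapsin response mediator proteins, which bind tubulin and act in axon growth, had the lowest median of the 10 lists. All 9 of its genes, Stmn2 included, were tested, and all 9 changes were below 0, with a median of -0.25. Of all 16490 tested genes, 8120 were below 0. Under other scalings 8 or 9 were below 0, and with the row of the slide as a block 7 were. None was called, while 5 were lower at an unadjusted limma p below 0.05, beside 22.9% of all tested genes, and the same 5 had a limma adjusted p below 0.05, beside 15.8%. Stmn4, a stathmin of the nervous system, had the largest change, from 4.52, 4.50 and 4.52 in Vector samples to 4.05, 3.96 and 4.06 in YAYC samples. This is a change of -0.49 (SE 0.046) with a limma adjusted p of 0.00239, under the minimum fold change. The dimmer Stmn4 probe changed by -0.36 with a limma adjusted p of 0.0393. Named after their values were seen, the mediators Crmp1, Dpysl3 and Dpysl2 changed by -0.39, -0.37 and -0.33. The second Dpysl3 probe, which was dimmer, changed by 0.0075. Stmn1, the stathmin of dividing cells, changed by -0.094 with a limma adjusted p of 0.264, and a test of the difference between these paralogues was not made.

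Among microtubule binding proteins, 23 genes were tested, 1 was called lower and 0 higher, and the median change was -0.019. The called gene was Map4, a microtubule-associated protein present in most tissues, at -0.65 (SE 0.058) with a limma adjusted p of 0.00213, and its call was lost with either normexp background correction. These counts use the brightest probe of each gene. Dimmer probes of Mapre1, Mapre2 and Dclk1 met the rule for lower, at -0.81, -0.84 and -0.84. Their limma adjusted p was 0.00162, 0.000754 and 0.00169. Another dimmer Dclk1 probe changed by -0.027. Among 24 tubulin modifying and severing enzymes, Agbl5 was the only call. It read -0.52, -0.56 and -0.54 in Vector samples and -2.24, -2.38 and -2.30 in YAYC samples. This was 3.40-fold lower, a change of -1.77 (SE 0.053) with a limma adjusted p of 0.000323, and it was called under all 22 other settings.

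Of 20 tested kinases and phosphatases that act on the cytoskeleton, 3 were called lower and 0 higher, beside 5% and 3.91% of all tested genes. On dimmer probes alone, Prkca met the rule for lower at -0.78 (limma adjusted p 0.0029). Cdk5r1 met it for higher at 0.59 (limma adjusted p 0.00169) in the same way. Gsk3b changed by -0.73 on its brightest probe, and by -0.21 and -1.15 on the others, so its probes differ in size but not in direction. Ppp2ca, a catalytic subunit of protein phosphatase 2A, which dephosphorylates tau, changed by -0.68 (SE 0.043). Camk2b, a subunit of a calcium-dependent kinase that binds actin, changed by -0.73 on one probe and by -0.18 on the other, which did not pass (limma adjusted p 0.578), and its call was lost when probes were averaged and with either normexp setting. Of 23 axonal motors, Kif5c, a kinesin heavy chain of neurons, was called lower at -1.06 (SE 0.046) and Kif3b, a kinesin-2 motor, was called higher at 0.63 (SE 0.048). The Kif3b call was lost with median scaling and with either normexp setting.

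Among 13 tested intermediate filament genes, Krt8, an epithelial keratin, was called higher at 0.67 (SE 0.13, limma adjusted p 0.0194), from a low Vector signal of -3.48. That call was lost in 10 of the 22 other settings, among them the fits without Vector array 1, 2 or 3 and without YAYC array 1 or 2. The neighbours of Ina and Nefm in this list, named after their values were seen, were Nefh, the heavy neurofilament chain, at 0.18 with a limma adjusted p of 0.0763 on the brighter probe and 0.23 with a limma adjusted p of 0.0133 on the dimmer one, and Prph, a filament of peripheral neurons, at 0.085 with a limma adjusted p of 0.252. Vim, the filament of many proliferating and mesenchymal cells, was lower at -0.33 with a limma adjusted p of 0.00844. The 21 growth cone membrane and actin genes, Gap43 included, and the 11 spectrins and ankyrins had 0 calls, with 12 and 3 genes at an unadjusted limma p below 0.05, which 46.2% of all tested genes reached. Their largest changes were 0.41 for Marcksl1, an actin-binding substrate of protein kinase C, and -0.39 for Ank3, which organises the axon initial segment. The dimmer Ank3 probes changed by 0.020 and -0.28, with limma adjusted p of 0.825 and 0.337.

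Among 26 regulators of neuronal genes, Rbfox1, a splicing factor of neurons, was called lower at -1.44 (SE 0.080), and Nova1, another neuronal RNA-binding protein, was called higher at 0.64 (SE 0.057). The Nova1 call was lost with median scaling and with either normexp setting, while the Rbfox1 call was kept under all 22 other settings. Rest, a repressor of many neuronal genes, was named after its value was seen and changed by 0.45 (SE 0.049) with a limma adjusted p of 0.00387, under the minimum fold change, while its dimmer probe changed by 0.29 with a limma adjusted p of 0.0992. The plot of the wider lists sets the members beside these genes.

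**Figure D5:**
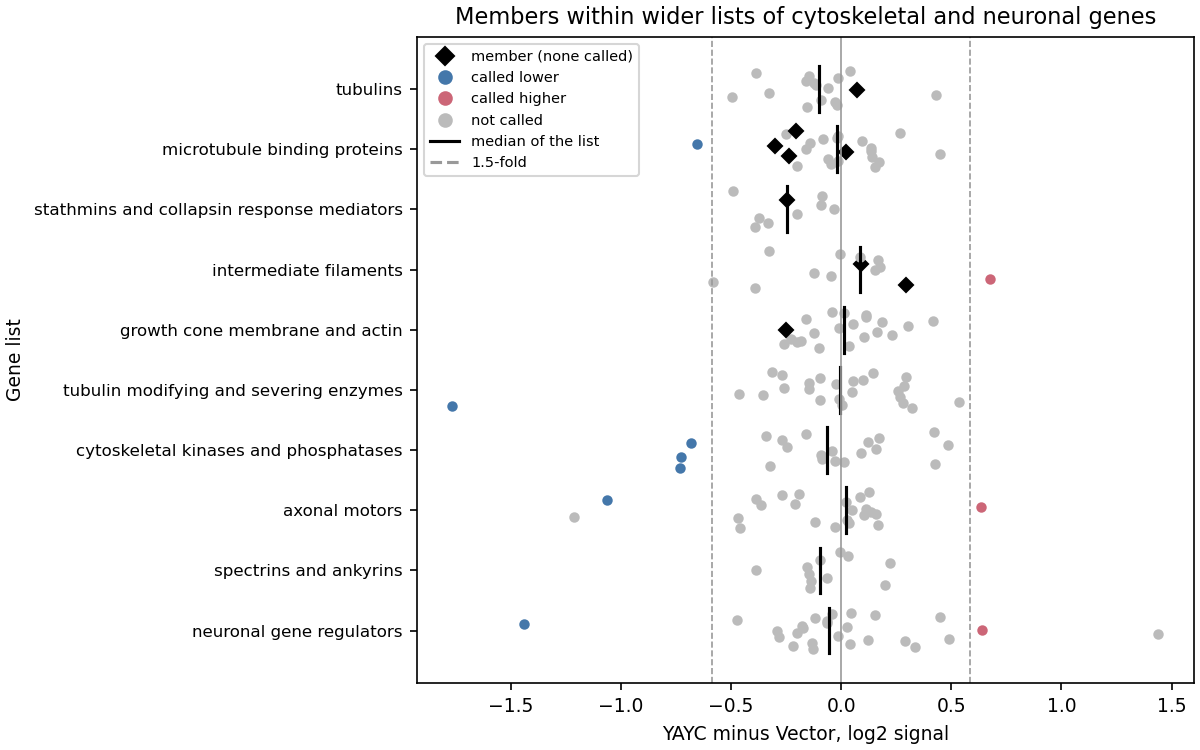
Change (YAYC minus Vector, log2 signal) of each tested gene in 10 lists of cytoskeletal and neuronal genes, with members as black diamonds, called genes in colour, list medians as vertical lines and dashed lines at 1.5-fold. All diamonds lie between the dashed lines, and the 10 called genes spread over 6 of the lists.

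Markers of other cell types had mostly low signals, and their part in the member changes was not tested. Of the tested markers, 2 of 4 astrocyte, 3 of 6 microglial, 4 of 6 fibroblast and 3 of 6 endothelial markers were well above background on all arrays. Of all 16490 tested genes, 13973 were. The log2 of the signal summed over a list was, for the astrocyte list, -2.41 to -2.22 in Vector samples and -2.67 to -2.50 in YAYC samples. That of the microglial list was 3.05 to 3.29 and 3.04 to 3.28, that of the fibroblast list -2.12 to -1.86 and -1.93 to -1.71, and that of the endothelial list 3.79 to 3.94 and 3.60 to 3.73. The sum of the neuroblastoma list was 8.79 to 8.82 in Vector samples and 8.72 to 8.77 in YAYC samples. By Vector signal, the markers well above background on all arrays included Aldh1l1 at -3.53 and Aqp4 at -3.65 among astrocyte markers, Mag at -1.39, Mog at -1.42 and Mbp at -2.66 among oligodendrocyte and Schwann markers, and Itgam at 2.64, Csf1r at 1.41 and Ptprc at -4.69 among microglial markers. Among fibroblast markers they included Col1a2 at -3.24, Dcn at -4.46, Col1a1 at -4.53 and Pdgfra at -4.58, and among endothelial markers Kdr at 3.84, Pecam1 at -2.19 and Vwf at -3.27. These levels are from the brightest probe of each gene. The dimmer Kdr probe lay at background, with a mean of -7.13 in Vector samples. Dimmer Itgam probes had Vector means of -3.06 and -3.51, and dimmer Csf1r probes -0.37 and -4.61. Those of Aqp4 at -4.58 and of Mbp at -3.53 and -6.29 were lower as well. The endothelial sum thus rests largely on the brighter Kdr probe, and the microglial sum on the brightest Itgam and Csf1r probes. Of the tested markers, S100b, Cx3cr1, Col3a1, Lum and Cdh5 were not well above background on any array. Pdgfra was called higher at 1.29, and Col1a1 was called lower at -0.77, a call kept in 10 of the 22 other settings.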

How the data were processed

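RNA was labelled with Cy3 in a single colour and hybridised to Agilent SurePrint G3 mouse arrays. The authors scanned them and ran Feature Extraction, version 10.10.1.1 per the file headers, and the deposited processed signal is an intensity corrected for background by that software. The deposited series matrix holds log2 values, which matched the scaling used here to within 0.0076 over 43557 probes and served as an alternative. In their own analysis, made with GeneSpring, the authors dropped weakly expressed genes.

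Control and outlier spots were left out, and the log2 processed signal minus the array's 75th percentile was averaged over the spots of a probe. Probes at or above the 20th percentile on all 3 arrays of a group were tested, 42126 in all. Symbols came from a RefSeq table of GRCm38.p6 by accession, while the array design uses mm9. A gene was read from its probe of highest mean signal. YAYC was set against Vector with limma (version 3.58.1, run in R 4.3.3), by a two-sided moderated test from lmFit and eBayes without covariates and with Benjamini-Hochberg adjustment over all tested probes. The number of arrays limits the precision. The members and the lists were chosen with earlier results of these data known. Named genes are all members, Nfya and Nfyc, the called genes of each list (at most 4, or the gene of largest change where none was called) and in each marker list up to 4 genes of highest Vector signal among those well above background on all arrays. Other genes named were chosen after their values were seen. Alternatives were other scalings, normexp background correction (offset 50), the series matrix, other filters and fold changes, a variance trend, array weights, the mean of a gene's probes, the replicate number or the slide row as a block, and leaving out each array. Normexp used the median spot signal with the median local background. One marker gene, and the summary of its list, are not reported here.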

Additional observations from a re-analysis of the deposited data

How the results depend on the processing

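The targeted genes kept their direction in all 22 alternatives, and Nfya, at -0.76, missed only a minimum change of 2-fold. No member was called in any alternative except without a minimum fold change, where 4 were lower and 1 was higher (Map2 -0.30, Mapt -0.21, Gap43 -0.25, Stmn2 -0.25, Ina 0.29). By adjusted p alone, the lower members numbered 2 without the filter on low signal and 0 to 2 when 1 array was left out. The share of all tested genes in these fits is not given. In the tubulin list such genes numbered 4 in the reported fit, 3 without the filter and 2 or 3 when 1 array was left out. The higher members numbered 0 with median scaling, 2 with normexp and quantile normalisation (Ina and Tubb3) and 0 with the slide row as a block. Members whose interval lay within 1.5-fold numbered 6 with median scaling and 7 with the slide row as a block.

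Changes that turned sign were all of members that did not pass in the reported fit. Under quantile normalisation Nefm was -0.035. Under median scaling Tubb3 was -0.044, Map1b -0.095 and Nefm -0.027, where the median of all genes was -0.11. Under normexp with the 75th percentile Map1b was -0.042 and Dcx 0.020, and with the slide row as a block Dcx was 0.78. Leaving out 1 array gave -0.030 to 0.066 for Map1b, -0.0029 to 0.19 for Nefm and -0.75 to 0.25 for Dcx. The causes were not tested.

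Over all genes, median scaling called 1175 lower and 382 higher, normexp with quantile normalisation 550 and 288, normexp with the 75th percentile 585 and 276, no minimum fold change 2602 and 2597, and a minimum of 2-fold 286 and 181. In the wider lists the lower and higher calls numbered 12 and 0 with median scaling, 5 and 0 with either normexp setting, 38 and 21 without a minimum fold change, and 3 and 0 at 2-fold.

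The labels do not say whether samples of the same replicate number were paired, and the values given next do not settle it. Deviations from the group means correlated at 0.018, 0.067 and 0.0025 for numbers 1 to 3, and 3 of the 6 arrays correlated best with their own number. With the replicate block, 765 genes were called lower and 518 higher, and 0 members were lower and 0 higher at adjusted p alone, with adjusted p of 0.0567 to 0.0801 for the 5 that had passed. The share of all tested genes at adjusted p alone is not given for this block. In the tubulin list 2 genes were lower there, against 4 in the reported fit, and in the stathmin list 4 against 5.

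Nefl and Dcx lie at background, which limits any statement on them, and Nefm lies close to it.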

Other observations

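Tubb2a and Tubb2b, closely related beta tubulin genes that lie outside the members, moved in opposite directions, and the pair was singled out after its values were seen. Tubb2a read 5.04, 5.05 and 4.997 on the Vector arrays and 5.47, 5.47 and 5.43 on the YAYC arrays, a change of 0.43 with a limma adjusted p of 0.00255. Tubb2b read 5.75, 5.64 and 5.60 on the Vector arrays and 5.33, 5.32 and 5.35 on the YAYC arrays, a change of -0.33 with a limma adjusted p of 0.0134, and its dimmer probe changed by -0.23. Neither reached the minimum fold change. The difference of the Tubb2a and Tubb2b probes was -0.63 ± 0.069 (SD, n = 3) in Vector samples and 0.13 ± 0.041 (SD, n = 3) in YAYC samples. No test was made of this difference, since the pair was chosen for it. Tubb2a kept its sign and an adjusted p below 0.05 in all 22 other settings, and Tubb2b kept its sign in all 22 and its adjusted p in 19.

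The kinase Cdk5, which phosphorylates cytoskeletal proteins in neurons, and its activator Cdk5r1 (p35) were also singled out after their values were seen. Cdk5 changed by -0.32 (SE 0.055) with a limma adjusted p of 0.0138. Cdk5r1 changed by 0.43 (SE 0.062) on its brighter probe with a limma adjusted p of 0.00858. The dimmer probe changed by 0.59 with a limma adjusted p of 0.00169, and so met the rule for higher. In all 22 other settings both genes kept their sign, while an adjusted p below 0.05 was kept in 17 by Cdk5 and in 20 by Cdk5r1.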
